A study of Mus musculus with 2 samples.

Results

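The genes of the Rab family of small GTPases were examined for peaks of RUNX2 CUT&Tag in MC3T3-E1 cells, a line of mouse osteoblast precursors. Members were found by symbol in the RefSeq annotation of the mouse genome (GRCm38, also called mm10): protein-coding genes on chromosomes 1 to 19 whose symbol is Rab, a number and optional letters, leaving out partner and regulator genes such as the Rab11fip and Rab3gap genes. This gave 57 of 20665 protein-coding genes on these chromosomes. The 4 Rab genes on chromosome X (Rab9, Rab9b, Rab33a and Rab39b) lie outside the rule. Of the 57 members, 55 encode GTPases. The symbol rule also admits Rab3ip and Rab3il1, which encode exchange factors that activate Rab8 and related GTPases, and these were kept and are named where they occur.

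Rab proteins are switches that mark the membranes of the cell. Exchange factors load them with GTP, GTPase-activating proteins return them to the inactive state, and in the active state they recruit effectors such as tethers, motors and adaptors that move or fuse vesicles. A prenyl group added to the C terminus anchors them in the membrane. Each compartment carries its own set, from the route between endoplasmic reticulum and Golgi to endosomes, lysosomes and secretory vesicles. Osteoblasts rely on these routes to secrete collagen and other matrix proteins.

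CUT&Tag uses an antibody, here against the Runt-family transcription factor RUNX2, to bring the transposase Tn5 to sites on chromatin. The cells were untreated and made up 1 group with 2 replicate libraries, without a control library or other condition among the samples used here. The lists held 26853 peaks in replicate 1 and 27287 in replicate 2, each given by position and width alone, so that depth and signal height are unknown. Whether the replicates were separate cultures is not stated, and their spread may be technical only.

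Most Rab genes had a RUNX2 peak nearby that both replicates shared. A shared region is the whole stretch spanned by peaks of both lists that overlap by at least 1 bp. Part of a region may thus hold a peak of 1 replicate only. A gene was linked to a region that lay inside the gene's span or within 10 kb of it. By this rule 49 of 57 Rab genes (86.0%) were linked, and 54.8% of all protein-coding genes on chromosomes 1 to 19 were. Without Rab3ip and Rab3il1 the count was 47 of 55 (85.5%). The 49 genes had 76 shared regions in all, and none of these was linked to more than 1 Rab gene. A single region was linked to 30 genes, 2 regions to 14, 3 to Rab5b and Rab13, and 4 to Rab27b, Rab30 and Rab31. For 56 of the 76 regions the nearest end of a protein-coding gene was that of the Rab gene, and these regions belonged to 42 Rab genes. A link gives position only and does not show which gene a site regulates.

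Rab genes were of moderate length, with a median span of 25.2 kb (2.76 to 226.8 kb) against 17.5 kb for all protein-coding genes. Since a longer gene gives a wider window, the linked share was also read within classes of span. Under 10 kb, 8 of 9 Rab genes were linked, against 39.5% of all protein-coding genes of that length. From 10 to 50 kb the count was 30 of 35, against 61.5%, and over 50 kb it was 11 of 13, against 66.3%. The Rab share thus lay above the general one in each class. No test of the list was made, since the series has no contrast and the list was chosen with earlier results known.

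A related family was read by the same rule. Of 25 Arf and Arl genes, small GTPases that include those of vesicle coats and Golgi traffic, 19 were linked (76.0%), a lower share than among the Rab genes. At gene ends the order was the other way: 17 Arf and Arl genes had a region within 1 kb of an end (68.0%, against 52.6% of Rab genes). Of the 22 with a promoter entry, 15 had one within 1 kb of a start (68.2%, against 56.5%). The Arf and Arl genes were shorter, with a median span of 9.44 kb. The differences between the families were not tested. The plot of genes with a shared region by link shows that both GTPase families and the 4 groups of Rab partners stood above the share of all protein-coding genes in the widest link.

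**Figure D1:**
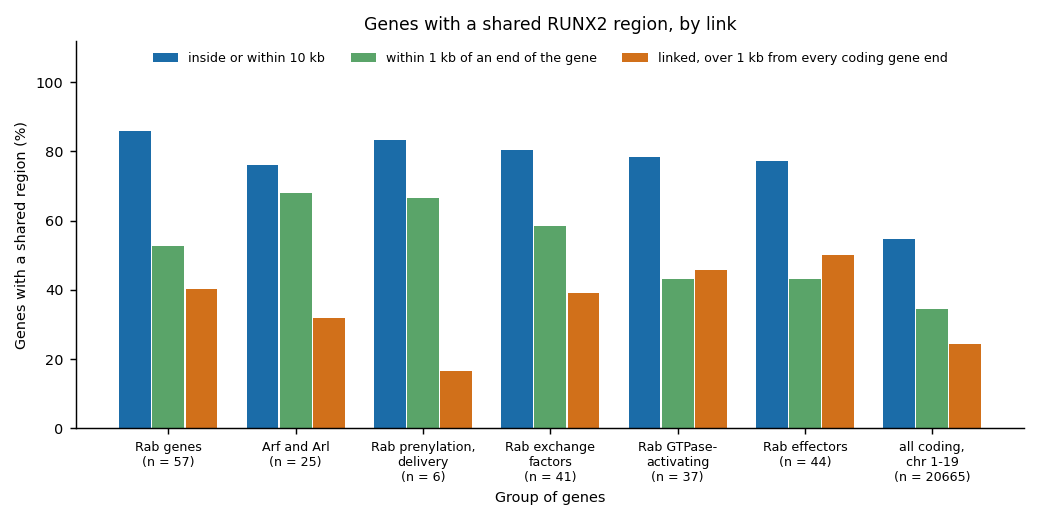
Bars give the percentage of genes in each group with a shared region, for 3 kinds of link (inside or within 10 kb, within 1 kb of either gene end, and a linked region over 1 kb from every protein-coding gene end); n is the number of genes. Rab genes stand at 86.0%, 52.6% and 40.4%, and all protein-coding genes on chromosomes 1 to 19 at 54.8%, 34.6% and 24.3%.

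Regions at the Rab genes lay mostly at the start of the gene or in its body. A shared region was found within 1 kb of an end of 30 Rab genes (52.6%), against 34.6% of all protein-coding genes. A linked region over 1 kb from every protein-coding gene end was found for 23 (40.4%), against 24.3%. These shares vary with span. At an end, the Rab share was 44.4% against 26.3% under 10 kb, 60% against 42.4% from 10 to 50 kb and 38.5% (5 of 13) against 33.2% over 50 kb. Away from ends, it was 22.2% against 9.75%, 34.3% against 23.4% and 69.2% against 48.3% in the same classes. Of the 76 regions, 30 lay within 1 kb of an end of the Rab gene (39.5%), 14 within 1 kb of the end of another protein-coding gene (18.4%), 24 inside the span away from gene ends (31.6%) and 8 outside it away from gene ends (10.5%). The same 4 shares over all links to protein-coding genes were 39.4%, 16.6%, 31.4% and 12.7%, so that Rab genes had more links but a like distribution of them.

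Where it was given, the strand told at which end the regions lay. RefSeq promoter windows gave the transcription start of 46 Rab genes. A shared region lay within 1 kb of an annotated start in 26 of them (56.5%), against 36.4% of the 16457 protein-coding genes with such an entry. At the opposite end of the gene the count was 0 of 46, where 3.55% of all such genes had a region. In a list of this size that is near the general share, and it leaves out the 11 members without a promoter entry. In 25 genes the region covered the start itself, though at Rab35 only the replicate 2 peak reached it. At Rab40c the region began 51 bp before the start. These 25 were Rab1a, Rab1b, Rab2b, Rab3a, Rab4b, Rab5a, Rab5b, Rab5c, Rab6a, Rab7, Rab8a, Rab8b, Rab10, Rab11a, Rab11b, Rab13, Rab14, Rab21, Rab22a, Rab28, Rab29, Rab33b, Rab35, Rab40b and Rab43. Of the genes without a promoter entry, Rab18, Rab26, Rab30, Rab36 and Rab37 had a region within 1 kb of an end. Whether that end was the start was not read for them. At Rab26 and Rab37 the region lay outside the gene, across an end of Traf7 and of Slc9a3r1.

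Runt-family proteins bind the core TGTGGT and its variant TGCGGT. These letters were searched on both strands (as ACCACA and ACCGCA on the other) in the window from 250 bp before to 50 bp after each start. The cores do not overlap each other. A match was present in 15 of 62 Rab windows (24.2%) and in 21.5% of the 20085 windows of protein-coding genes. Of the 28 Rab windows whose start was covered by a shared region, 8 held a match (28.6%), against 22.6% of all covered windows. Among the 34 Rab windows not covered, 7 held one (20.6%), against 21% of all windows not covered. Over all protein-coding genes the share with a match thus differed little between covered and other windows. Rab windows thus carried the letters about as often as other promoters. The matches were single in each of the 8 covered windows that held one, at Rab3a, Rab6a, Rab8a, Rab11a, Rab21, Rab28, Rab29 and Rab33b. Covered windows were richer in the dinucleotide CG, with a median of 24.5 per window (11 to 43) against 16 (1 to 45) in the other Rab windows, and over all protein-coding genes the medians were 23 and 7. The widest of the start regions, at Rab1a and Rab11b, held no match in their windows.

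The following windows show starts covered by a shared region, for the Rab genes with a match and the widest regions. Capitals mark the core, and each sequence is from RefSeq (GRCm38.p6), read 5′ to 3′ on the strand of the gene. Each runs from 250 bp before the start to 30 bases from the start on. The match of Rab6a lies 41 bp after its start, beyond the printed part, and is not shown.
Rab28 (chr5:41708150-41708429, minus strand): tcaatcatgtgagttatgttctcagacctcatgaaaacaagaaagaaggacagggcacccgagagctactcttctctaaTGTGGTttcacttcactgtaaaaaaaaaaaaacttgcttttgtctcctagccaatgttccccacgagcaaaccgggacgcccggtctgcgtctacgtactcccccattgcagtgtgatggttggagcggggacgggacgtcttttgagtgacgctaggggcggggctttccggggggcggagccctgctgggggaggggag
Rab21 (chr10:115315562-115315841, minus strand): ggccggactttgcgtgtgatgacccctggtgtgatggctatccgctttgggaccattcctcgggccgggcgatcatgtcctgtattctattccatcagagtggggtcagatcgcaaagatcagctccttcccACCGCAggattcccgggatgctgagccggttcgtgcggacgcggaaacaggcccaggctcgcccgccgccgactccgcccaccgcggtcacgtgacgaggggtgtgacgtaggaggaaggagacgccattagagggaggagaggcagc
Rab33b (chr3:51483716-51483995, plus strand): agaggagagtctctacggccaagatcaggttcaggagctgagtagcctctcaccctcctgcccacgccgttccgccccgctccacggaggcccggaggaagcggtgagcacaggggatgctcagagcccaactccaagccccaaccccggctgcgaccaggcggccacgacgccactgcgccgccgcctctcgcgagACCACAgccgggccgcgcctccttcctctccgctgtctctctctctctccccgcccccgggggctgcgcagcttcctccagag
Rab8a (chr8:72160950-72161229, plus strand): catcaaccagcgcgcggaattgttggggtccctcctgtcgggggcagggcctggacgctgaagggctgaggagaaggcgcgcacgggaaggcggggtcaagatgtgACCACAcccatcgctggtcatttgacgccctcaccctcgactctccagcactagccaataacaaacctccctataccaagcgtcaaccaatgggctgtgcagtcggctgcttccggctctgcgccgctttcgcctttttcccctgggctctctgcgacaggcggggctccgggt
Rab11a (chr9:64737727-64738006, minus strand): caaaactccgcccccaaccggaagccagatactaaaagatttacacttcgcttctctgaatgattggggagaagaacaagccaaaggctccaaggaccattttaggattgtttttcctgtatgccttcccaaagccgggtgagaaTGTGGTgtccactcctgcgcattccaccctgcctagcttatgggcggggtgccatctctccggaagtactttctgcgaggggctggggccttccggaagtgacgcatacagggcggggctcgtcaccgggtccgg

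In these windows the core stood 171 bp before the start in Rab28, 118 bp before it in Rab21, 53 bp in Rab33b, 144 bp in Rab8a and 105 bp in Rab11a. The cores of Rab28 and Rab11a read TGTGGT on the strand of the gene, those of Rab33b and Rab8a read TGTGGT on the opposite strand, and that of Rab21 reads TGCGGT on the opposite strand. The shared region covered the core in all 5. Peaks list no summit, so it is not known how near to the core the signal was highest. A match is a stretch of letters and was not tested as a site.

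Close paralogues did not share the pattern in every case. All 3 Rab5 genes, which drive the fusion of early endosomes, carried a region over the start, as did both Rab1, both Rab8 and both Rab11 genes. Among the Rab3 genes of regulated exocytosis, Rab3a had a region over its start, while the regions nearest to the starts of Rab3b, Rab3c and Rab3d lay 8488, 49515 and 5779 bp away. Rab6a had a region over its start and Rab6b had its nearest 3324 bp away. Rab7, the GTPase of fusion with lysosomes, had a region over its start, while the region at Rab7b lay 1799 bp inside the low end of the gene. Rab4b had a region over its start and Rab4a had no shared region. The low end of a gene is that with the smaller coordinate.

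Rab genes were then read by role, beside the 54.8% of all protein-coding genes that were linked and the 34.6% with a region within 1 kb of an end. Of 11 genes of the route between endoplasmic reticulum and Golgi, 10 were linked (90.9%) and 8 had a region within 1 kb of an end (72.7%). Rab1a, which acts in transport from the endoplasmic reticulum to the Golgi (chromosome 11, 20201412 to 20226856), had the widest of them by mean rank of width, from 20200704 to 20201665 across its start. Its peaks measured 913 bp (replicate 1) and 962 bp (replicate 2), the order in which all widths are given here. Rab6a, the GTPase of transport within and out of the Golgi, had a start region with peaks of 878 and 715 bp. At Rab2b the start region had peaks of 726 and 655 bp and also covered the end of the neighbouring gene Tox4. A wider region at Rab2b (781 and 654 bp) lay across the end of Chd8, 3557 bp away. Rab30, a Golgi GTPase, had 4 regions, described below. The region at Rab6b was among the narrowest, with 203 and 289 bp. Rab33b had 710 and 555 bp over its start, Rab43 608 and 461 bp and Rab1b 396 and 482 bp. Rab18, linked to the endoplasmic reticulum and lipid droplets, had 367 and 556 bp over its low end, and Rab2a had 303 and 428 bp at 1781 bp inside its high end. Rab19 was the member of this group without a shared region.

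Genes of secretion and exocytosis were linked in 11 of 12 cases (91.7%), and 7 had a region within 1 kb of an end (58.3%). Rab8b, which acts between the Golgi and the plasma membrane, had peaks of 669 and 797 bp over its start and a second region of 348 and 402 bp in the gene body. Rab10, of the same route, had 708 and 674 bp over its start, and Rab8a 654 and 456 bp. Rab26, a GTPase of secretory granules, had the widest region of this group (783 and 888 bp), 653 bp from its low end and across the end of Traf7. Rab3c, with the longest span of all members (226.8 kb), had 2 regions deep inside it. The peaks of the one ranked higher by width measured 786 and 639 bp, and those of the other 797 and 535 bp, and they lay 50305 and 61856 bp from the nearest end of the gene. Rab27b, which acts in the docking of granules and exosome release, had 4 regions, all inside the gene, and Rab27a had none. Rab3a, the main Rab3 of synaptic vesicles, had 332 and 316 bp over its start and 258 and 424 bp at the end of Mpv17l2. Rab3b had 381 and 448 bp in the gene body, Rab3d a region of 465 and 506 bp at the ends of Ccdc159 and Tmem205, and Rab37 one of 568 and 289 bp, 57 bp beyond its high end and across the end of Slc9a3r1.

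Early endosome and fast recycling genes were linked in 8 of 9 cases (88.9%), and 6 had a region within 1 kb of an end (66.7%). Rab4b had peaks of 760 and 727 bp over its start and Rab5b 882 and 644 bp. The end of Pmel lay within the same Rab5b region. Rab5a had 515 and 612 bp over its start, with another region of 676 and 457 bp in the gene body 9247 bp from its low end. At Rab5c the start region had 432 and 719 bp, and at Rab22a it had 598 and 606 bp. The region at Rab21, which acts in the uptake and traffic of integrins, had 623 and 662 bp. It lay 1208 bp from the end of the gene's span but over an annotated start. Rab35 had a narrower region at its start (372 and 593 bp) than 5416 bp beyond its high end (918 and 650 bp), where the nearest protein-coding end was that of Bicdl1.

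Recycling endosome genes were linked in 5 of 6 cases (83.3%), and 3 had a region within 1 kb of an end (50%). Rab11b, one of the GTPases that define the recycling endosome, had peaks of 968 and 892 bp over its start. Rab11a had 604 and 413 bp there and Rab14 603 and 471 bp. The widest region in this group was linked to Rab25, with 1054 and 1015 bp, but it lay across the ends of Lamtor2 and Ubqln4, 4400 bp from Rab25. It was the only region of the 76 with a peak of at least 1 kb in both replicates. Rab17, like Rab25 known mainly from epithelial cells, had a region of 423 and 727 bp at 5270 bp beyond its high end. Rab15 had no peak in either list.

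Of 10 genes of late endosomes, lysosomes and related organelles, 7 were linked (70.0%, against 54.8% of all protein-coding genes) and 2 had a region within 1 kb of an end (20%, against 34.6%). The 2 were Rab7, with narrow peaks of 268 and 477 bp, and Rab29, with 437 and 412 bp. Rab34 was linked to 2 regions, which lay at the ends of Tlcd1 and Rpl23a, and Rab24 to 1 at the end of Mxd3. With Rab25 they were the 3 members whose shared regions all lay at the ends of other genes. Rab34 also had unshared peaks of its own, 518 bp in replicate 1 and 306 bp in replicate 2. Their midpoints lay 0.246 and 1.176 kb inside its low end, and the replicate 1 peak covered that end. Rab24 and Rab25 had unshared peaks nearby too. The widest single peak at any Rab gene was in Rab7b, with 1556 bp in replicate 1. Replicate 2 had 2 peaks over the same stretch, of 654 and 212 bp. Rab12 had a region of 337 and 648 bp and Rab20 one of 385 and 258 bp, both in the gene body. Groups of this size are too small to rank by these counts, and the differences between roles were not tested.

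Among the remaining members, Rab28 and Rab23, both tied to the primary cilium, had 2 regions each. Rab28 had peaks of 1037 and 591 bp over its start and of 380 and 245 bp near its low end, 2384 bp inside. Rab23, a negative regulator of hedgehog signalling, had no shared region at an end, but an unshared replicate 1 peak of 291 bp covered its low end. The shared regions of Rab23, with 725 and 363 bp and with 363 and 513 bp, lay 7606 bp before and 4704 bp inside its low end. Rab40c and Rab40b, whose products carry a SOCS box of ubiquitin ligases, each had a region at the start (814 and 765 bp, 587 and 595 bp) and another at the end of a neighbour. At Rab40c the neighbour was Mettl26, with peaks of 983 bp in both lists. Rab36 had a narrow region 13 bp inside its low end (366 and 314 bp). Rab42 had a region of 822 and 547 bp, nearest to Trnau1ap. The exchange factor genes Rab3ip and Rab3il1 had 1 region each and none at an end. That of Rab3ip, in the gene body, had the narrowest replicate 2 peak of all, 162 bp, with 284 bp in replicate 1. That of Rab3il1 had 750 and 803 bp, and its nearest coding gene end was that of Fads3.

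**Figure D2:**
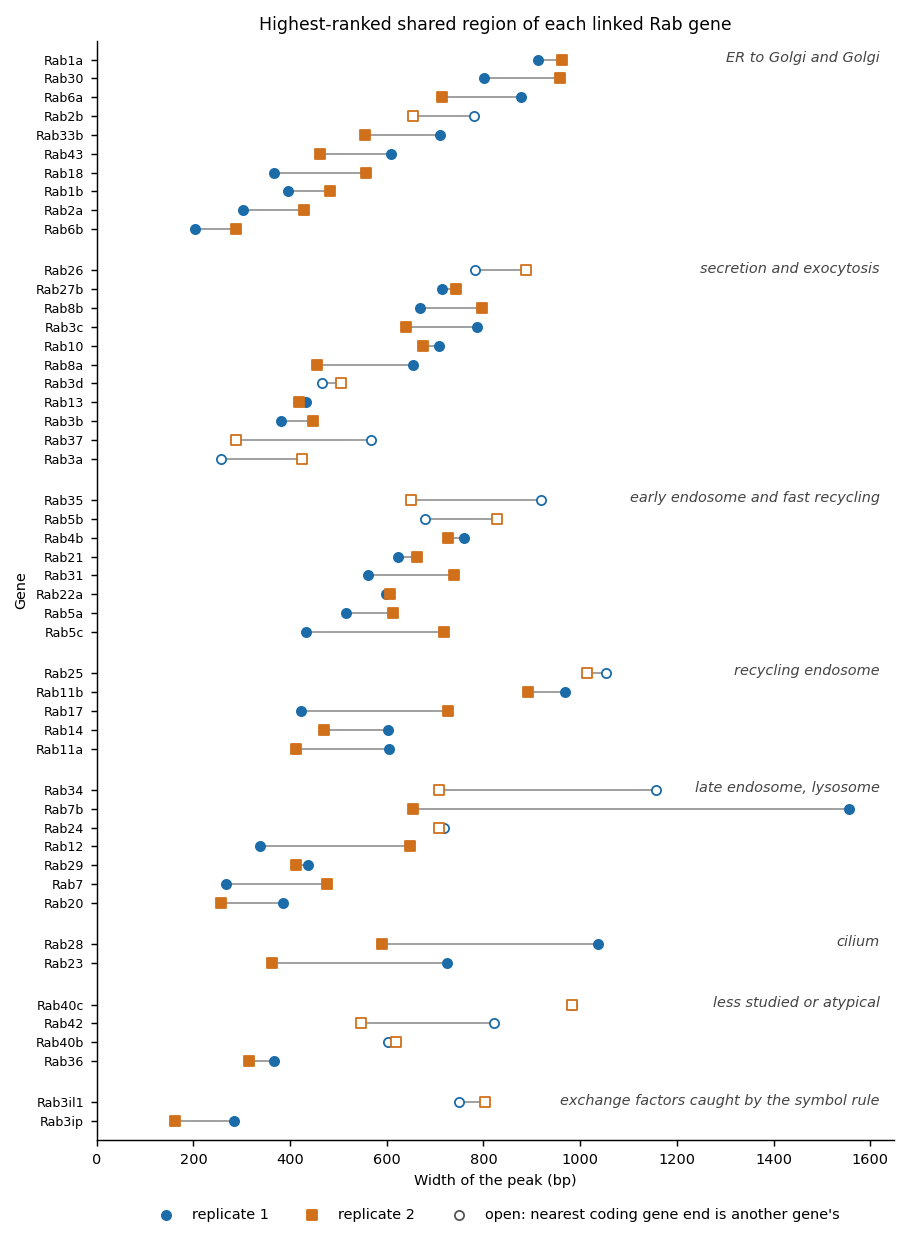
For each of the 49 linked genes the points give the width in bp of the replicate 1 (circle) and replicate 2 (square) peak of its shared region with the highest mean rank of width, grouped by the best known role. Open symbols mark regions whose nearest protein-coding gene end belongs to another gene, as at Rab25 (1054 and 1015 bp), and Rab7b shows the largest gap between replicates (1556 bp, and 654 bp for the wider of 2 replicate 2 peaks).

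Peaks at Rab genes were wider by their medians than those of all shared regions, which are not limited to regions linked to a gene. Against links of the same place this did not hold in the gene body. Widths differed between replicates in both directions. Where a region held 2 peaks of a list, as at 2 of the 76, the wider was taken. The median width over the 76 regions was 600 bp in replicate 1 (203 to 1556) and 558 bp in replicate 2 (162 to 1015), against 493 and 498 bp over all 17836 shared regions on chromosomes 1 to 19. The peak was wider in replicate 1 at 38 regions, wider in replicate 2 at 37 and equal at 1. At 55 regions (72.4%) the widths were within 1.5-fold of each other, and at 3 (3.95%) they differed by over 2-fold. Over all shared regions these shares were 66.6% and 13.7%. The regions at an end of the Rab gene had medians of 603.5 and 592 bp, those in the gene body 383 and 489 bp. Over all links to protein-coding genes the medians were 553 and 558 bp at an end and 464 and 466 bp in the body, so the order was the same. In the body the Rab median was thus lower in replicate 1 and higher in replicate 2. The median of the mean rank of width, as a percentile, was 57.7 for Rab genes against 57.8 in the body and 70.7 against 69.0 at an end. It was 75.3 against 67.2 at another gene's end and 67.5 against 59.3 outside the gene away from ends.

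**Figure D3:**
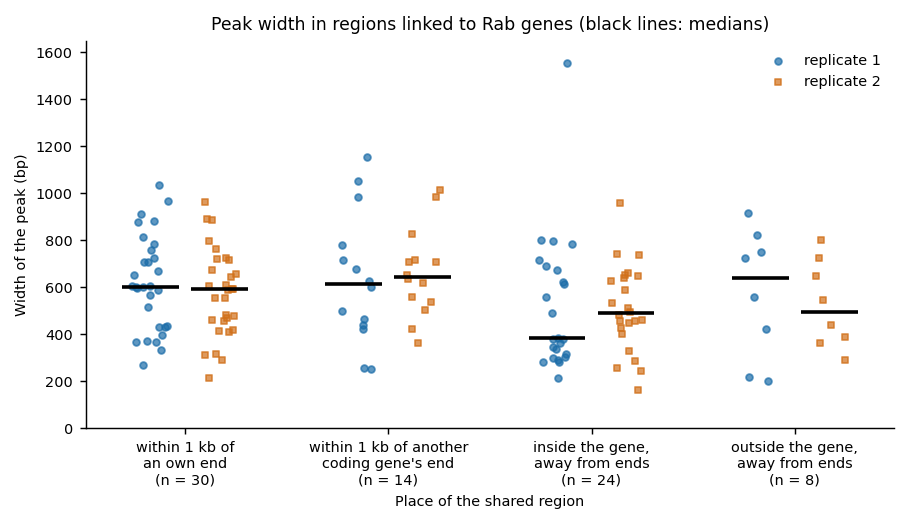
Each point is the width in bp of a peak in a shared region linked to a Rab gene, by place of the region and by replicate, with medians as black lines. Regions within 1 kb of either gene end (medians 603.5 and 592 bp) lie above those inside the gene away from ends (383 and 489 bp), with wide overlap.

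Shared regions numbered 3 or more at 5 Rab genes (8.77%), a share near that of all protein-coding genes (7.71%). Of the 13 Rab genes over 50 kb, Rab27b, Rab30 and Rab31 had 3 or 4 regions away from gene ends, Rab3c had 2, 5 had 1 and 4 had none. Rab30 (chromosome 7, 92741637 to 92844535) had a region over its low end, with peaks of 602 and 214 bp, and 3 inside. The first of these, 35001 bp from the low end, was the widest (801 and 958 bp). The others had 613 and 587 bp and 491 and 627 bp, and lay 17876 and 11588 bp from the high end. Rab31, which acts between the trans-Golgi and endosomes (chromosome 17, 65651726 to 65772752), had 3 regions inside the gene. Their peaks measured 216 and 285 bp, 283 and 461 bp, and 561 and 739 bp. Its other region, at the end of Ppp4r1, lay 9772 bp beyond its high end, and no region was at an end of Rab31 itself. Rab27b had regions of 715 and 744 bp, 290 and 330 bp, 690 and 484 bp and 317 and 494 bp. Both lists also held a narrow peak near the middle of Rab27b, 172 bp in replicate 1 and 182 bp in replicate 2, that did not overlap. Besides its start region, Rab5b was linked to regions at the ends of 2 other genes, both outside its span. That at Suox had peaks of 680 and 829 bp and lay 2448 bp before the low end of Rab5b. That at Cdk2 had 626 and 560 bp and lay 8242 bp beyond the high end. Rab13, which acts at tight junctions, had a region over its start (432 and 418 bp) that also covered the end of the ribosomal protein gene Rps27. A second Rab13 region, of 299 and 456 bp in the gene body, covered another annotated start, by its replicate 2 peak only. This and the Rab21 region were the 2 of the 32 regions counted as away from gene ends that covered a start of their own gene. The remaining Rab13 region, of 254 and 540 bp, lay at the end of Jtb, 4958 bp beyond the high end of Rab13.

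**Figure D4:**
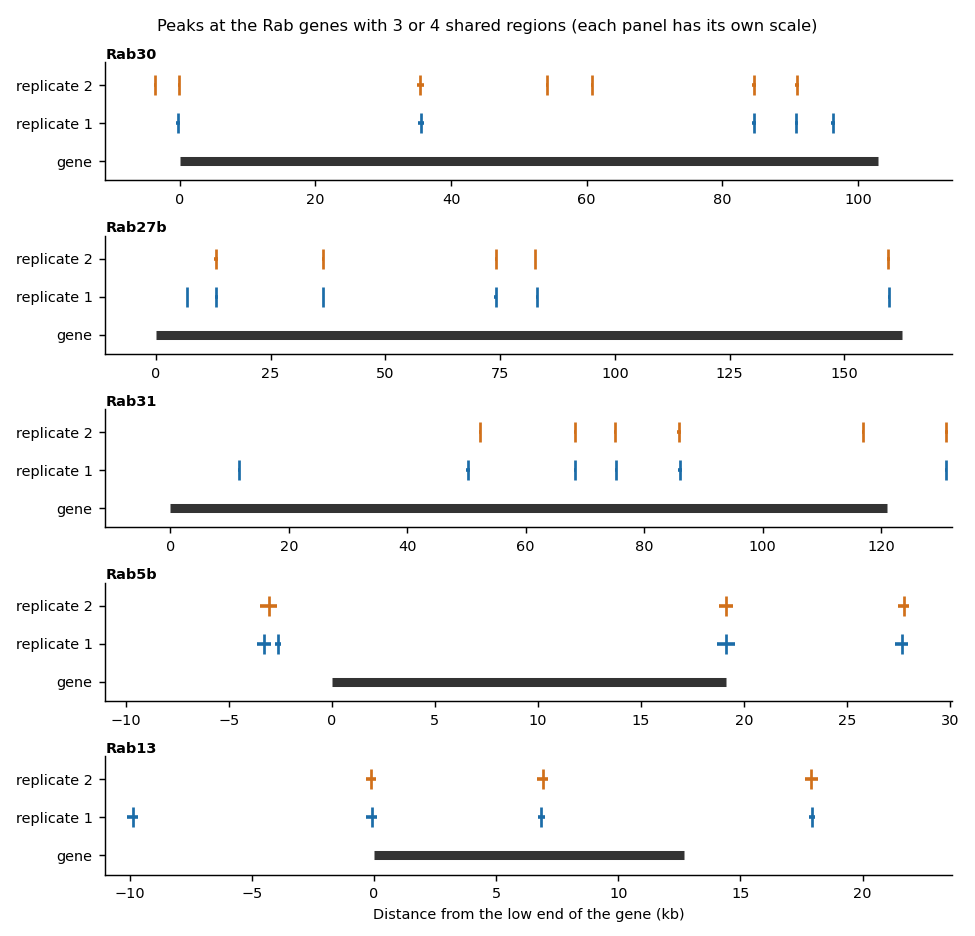
Ticks mark the midpoints and horizontal lines the widths of all peaks of replicate 1 and replicate 2 at the 5 genes with 3 or 4 shared regions, by distance in kb from the low end of the gene (black bar, the gene's span). Most ticks line up between replicates. Rab13, Rab27b, Rab30 and Rab31 also have peaks that overlap none of the other list, and Rab5b has none of these.

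The 8 members without a shared region were Rab4a, Rab15, Rab19, Rab27a, Rab32, Rab38, Rab39 and Rab44. Rab15, Rab38 and Rab39 had no peak in either list. Rab19 and Rab32 had 1 peak in each list at different places, 4289 bp apart at Rab19 (298 bp in replicate 1, 430 bp in replicate 2) and 6715 bp apart at Rab32 (224 and 333 bp). The replicate 1 peak of Rab32 lay 629 bp inside its high end, where its annotated start is. Rab4a, Rab27a and Rab44 had peaks in replicate 2 alone. Those of Rab4a lay 60 bp inside its low end (162 bp wide) and 272 bp beyond its high end (240 bp), those of Rab27a measured 199 and 185 bp, and that of Rab44 measured 237 bp. The widest of all these peaks was the replicate 2 peak at Rab19, and a gene without a listed peak may carry signal below the calling limit.

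Some 3 in 4 peaks at Rab genes recurred in the other replicate. Replicate 1 had 100 peaks linked to Rab genes, of which 77 overlapped a replicate 2 peak, and replicate 2 had 104, of which 76 overlapped one of replicate 1. The shared part was 75.0% ± 2.77 (SD, n = 2), against 67.9% ± 0.795 over all peaks on chromosomes 1 to 19. With 2 replicates that come from the same overlaps, this difference has no test.

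Partners of the Rab proteins were read against the 54.8% linked among all protein-coding genes, and against 61.5% and 66.3% among genes of 10 to 50 kb and over 50 kb. All 6 prenylation and delivery genes were found in the annotation and 5 were linked, with 2 regions at Rabggta, a subunit of the enzyme that adds the prenyl group, and 1 each at Rabac1 and Rabif. Of 41 exchange factor genes 33 were linked (80.5%), a list that holds the members Rab3ip and Rab3il1. They were led by Rabgef1, which activates Rab5, with 4 regions and peaks of up to 1340 and 753 bp. Dennd1a, which activates Rab35, had 4, and Hps1, a subunit of the exchange factor for Rab32 and Rab38, had 3. Of 37 genes of GTPase-activating proteins 29 were linked (78.4%), with 6 regions at the long gene Rabgap1l (574.3 kb) and 4 each at Tbc1d1 and Tbc1d14. Of 44 effector genes 34 were linked (77.3%). Mical3 had 5, and Fyco1, which links Rab7 to kinesin, and Rilpl1 had 4 each. These lists hold genes longer than the Rab genes, with median spans of 42.5, 68.7 and 48.6 kb for the last 3. Differences between the lists, or from the Rab genes, were not tested.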

How the data were processed

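RUNX2 CUT&Tag was measured in 2 replicate libraries of 1 group of untreated MC3T3-E1 cells. The genome build was GRCm38 (mm10), and fastp 0.19.6, Bowtie2 and deepTools were used in unstated roles, per the submitters' processing notes. Which peak caller, threshold or control the authors used is not given in these sources. The lists deposited by the authors have 5 columns and no header, and hold the number, chromosome, start, end and width in bp of each peak, called for each replicate separately, with no score.

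Regions, links and distances were computed with Python 3.11.15 and pandas 2.3.3. The functions were tested on simulated peaks, and overlap counts were checked against bedtools 2.31.1. A region was linked if any base lay within 10 kb of the span, and its distance is that from its nearest base. Genes were RefSeq GRCm38.p6 spans, and strand and starts came from RefSeq promoter windows, which were matched by symbol for 46 of 57 members. Of the partner lists, Tbc1d25, Sytl4 and Sytl5 were not among the genes on chromosomes 1 to 19.

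Every member is named. Details are given for up to 4 members per role by mean rank of peak width, the 5 with most regions and those with peaks but no shared region. Unshared peaks of linked members are mostly not given. Of each partner list the 3 with most regions are named. Others were added after their values were seen. Members, roles and lists were chosen with earlier results of these data known. A planned comparison group is not reported here. No test was made. Alternatives were other link distances, overlap rules, widths, midpoints and each replicate alone.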

Additional observations from a re-analysis of the deposited data

How the results depend on the processing

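The count of 49 linked Rab genes lay between 37 and 54 under the 10 alternatives tried, and in each the Rab share was above that of all protein-coding genes under the same rule. It was 38 (42.8% of all protein-coding genes) with regions inside the span only, 54 (72.3%) with a distance of 50 kb, 47 (46.8%) with a reciprocal overlap of 50%, 42 (45.7%) with the nearest coding gene end only, and 37 (37.9%) with only the peaks above the median width of each list. With the peaks of replicate 2 alone it was 54 (62.8%) and with those of replicate 1 alone 51 (62.7%). The 30 genes with a region within 1 kb of an end ranged from 23 to 36. The count was 23 (21.9% of all protein-coding genes) with only the wider peaks. It was 36 with replicate 2 alone (39.5%) and with replicate 1 alone (39.4%). The 26 with a region near a transcription start, alternatives chosen after the data were seen, ranged from 23 to 30. These were 23 (23.1% of all genes with a promoter entry) with the wider peaks, and 30 with replicate 2 (41.5%) or replicate 1 (41.3%) alone. Values that moved were the number of linked regions, 183 with a distance of 50 kb and 50 with only the wider peaks, and the number of genes with a region away from coding gene ends, 12 with only the wider peaks. The shared part of the Rab-linked peaks was 67.2% with the reciprocal overlap and 81.4% with the wider peaks. The share over all peaks is not given under these rules, so these values have no like share beside them. Of 44 recomputed values, 39 stayed within 1.5 times the count given in the report or, for the shared part, within 1 SD (2.77 percentage points) of its value. Without heights or read counts, weak binding cannot be told from none.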
